A study of Arabidopsis thaliana with 8 samples.

Results

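Histone H3 transcripts were followed in Arabidopsis thaliana roots and in protoplasts made from root tissue, in wild-type (WT) plants and in a hira background. Protoplasts are cells whose walls have been digested away, and the study uses them to ask how hira acts on dedifferentiation. The 8 probe sets described here are those that the platform annotation gives to H3 genes of the H3.1 and H3.3 groups, out of 22810 probe sets on each of 8 single-channel Affymetrix arrays. They were found by their probe set IDs, with earlier results of these data known. Each of the 4 groups, roots and protoplasts of WT and of hira, had 2 arrays. Seeds were cold-treated and seedlings grown on vertical MS plates. The labels name no hira allele and give no plant age, and they list enzyme digestion as the treatment of all samples, roots included. Since nothing in the labels ties the arrays of a group to different plants or digestions, a p-value here speaks only of array-to-array spread, which may be technical.

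Histone H3.1 is the replication-coupled form of H3: its genes are transcribed mainly in S phase, and the chaperone CAF-1 loads the protein behind the replication fork. Histone H3.3 is the replacement form, made outside S phase as well and loaded at transcribed genes by the HIRA complex, among others. In plants the proteins of both groups are nearly identical, and H3.3 accumulates in cells that have stopped dividing.

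The annotation gives all 5 H3.1 probe sets (247192_at, _250433_at_, _250434_at_, 257714_at and 264262_at) the same 5 genes, AT1G09200, AT3G27360, AT5G10390, AT5G10400 and AT5G65360. The pair whose values ranged most widely over the arrays is set in italics. All 3 H3.3 probe sets (250397_at, 252824_at and 252849_at) are given the same 3 genes, AT4G40030, AT4G40040 and AT5G10980. The RefSeq gene table (TAIR10.1) carries the name H3.1 for 5 of the 5 genes and H3.3 for 3 of the 3. In that table AT5G10390 lies next to AT5G10400, and AT4G40030 next to AT4G40040. No probe set can therefore be tied to 1 gene here, and probe sets of a group may read the same transcripts. They cannot be taken as independent of each other, and values are given by probe set.

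Values are log2 differences from each probe set's own median over the 8 arrays, so a value of 0 is that median and not an absent transcript. Levels cannot be compared between probe sets, and H3.1 cannot be called more or less abundant than H3.3. HIRA has no probe set in the annotation used here, so the genotype could not be checked by its transcript. With centred values no marker gene shows whether a tissue is present. The WT root arrays stood apart in RNA controls. Their GAPDH control had 5′ minus 3′ gaps of -2.24 and -2.19, where the other 6 arrays lay between -0.10 and 0.75. Their actin gap was -1.81 ± 0.47 (SD, n = 2), against 1.52 ± 0.32 in WT protoplasts and between -0.35 and 0.30 on the 4 hira arrays.

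The H3.1 probe sets were high in roots and low in protoplasts of both genotypes, and no H3.3 probe set passed that test. A probe set is called changed where limma's p, adjusted over all 22746 probe sets tested, was under 0.05. In WT plants 5 of 5 H3.1 probe sets were lower in protoplasts, by 1.75-fold to 13.1-fold, where 13.9% of all probe sets were called lower. Their median log2 change was -1.09, beside 0.03 over all probe sets. In hira plants 5 of 5 were lower too, by 1.87-fold to 10.2-fold, with a median of -1.26 beside -0.02, where 12.2% of all probe sets were called lower. For 5 of 5 probe sets both protoplast arrays lay below both root arrays in each genotype. The same held for 26.8% of all probe sets in WT and for 53.5% in hira.

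**Figure D1:**
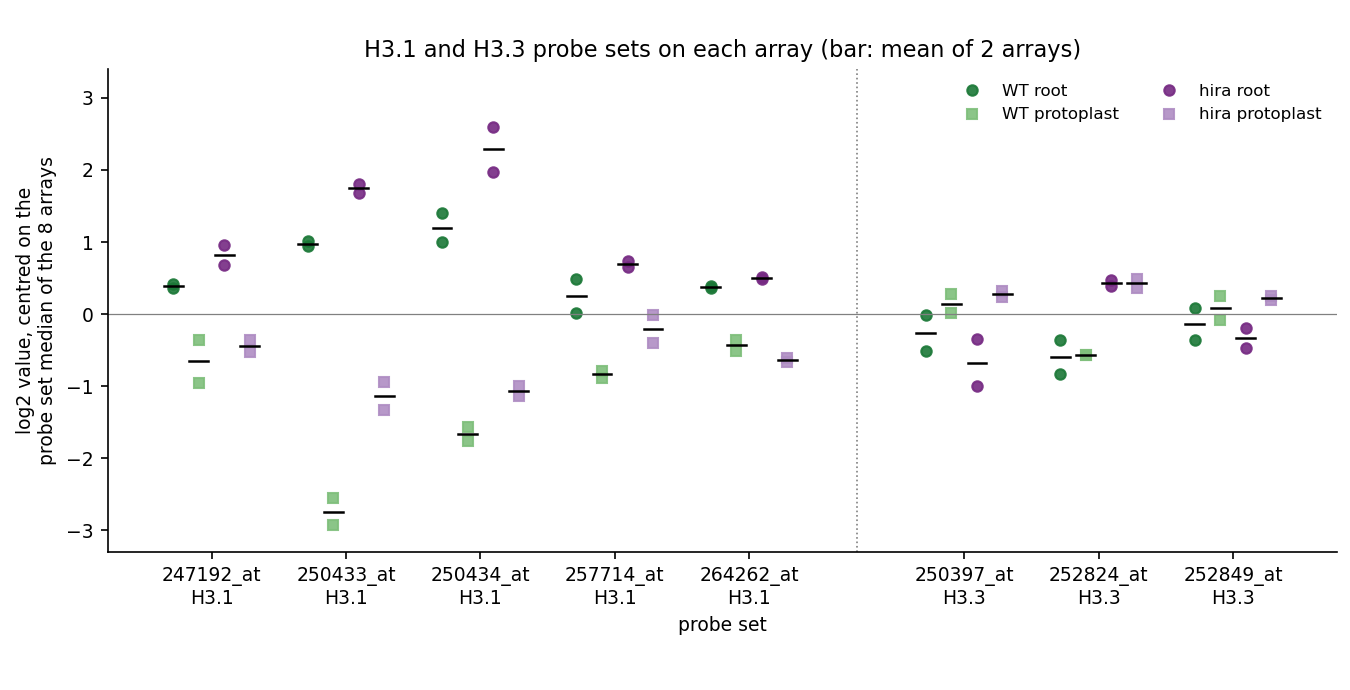
Centred log2 value (vertical axis) of the 5 H3.1 and 3 H3.3 probe sets (horizontal axis) on each of the 8 arrays, coloured by group, with a bar at the mean of the 2 arrays. For every H3.1 probe set the root arrays lie above the protoplast arrays of the same genotype, with the widest range, 4.74, for _250433_at_, while no H3.3 probe set spans more than 1.32. The H3.1 probe set 264262_at spans 1.17, less than the H3.3 probe sets 250397_at (1.31) and 252824_at (1.32).

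Probe set _250433_at_ had the widest range of the 8, 4.74 on the log2 scale, where the median over all probe sets tested was 1.38. It read 0.94 and 1.01 in WT roots, -2.55 and -2.93 in WT protoplasts, 1.81 and 1.68 in hira roots, and -1.32 and -0.94 in hira protoplasts. The 4 groups did not overlap, and the WT protoplast arrays were the lowest by more than 1 log2 unit. The protoplast minus root difference was -3.72 in WT (SE 0.18, adjusted p = 0.0011) and -2.88 in hira (SE 0.18, adjusted p = 0.00181).

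Probe set _250434_at_ read 0.99 and 1.40 in WT roots, -1.76 and -1.56 in WT protoplasts, 2.601 and 1.97 in hira roots, and -1.13 and -0.99 in hira protoplasts. Its 4 groups did not overlap either, and the highest values were those of hira roots. The difference was -2.86 in WT (SE 0.26, adjusted p = 0.00358) and -3.35 in hira (SE 0.26, adjusted p = 0.00276).

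The other 3 H3.1 probe sets moved the same way over a smaller range. Probe set 264262_at read 0.38 and 0.36 in WT roots, -0.51 and -0.36 in WT protoplasts, 0.51 and 0.48 in hira roots, and -0.62 and -0.66 in hira protoplasts. Its replicates lay close together, and its difference was -0.80 in WT (SE 0.06, adjusted p = 0.00226) and -1.13 in hira (SE 0.06, adjusted p = 0.00121). Probe set 247192_at read 0.42 and 0.36 in WT roots, -0.95 and -0.36 in WT protoplasts, 0.96 and 0.69 in hira roots, and -0.52 and -0.36 in hira protoplasts. It changed by -1.05 in WT (SE 0.22, adjusted p = 0.0292) and by -1.26 in hira (SE 0.22, adjusted p = 0.0188), and its protoplast arrays of the 2 genotypes overlapped. Probe set 257714_at read 0.01 and 0.49 in WT roots, -0.89 and -0.78 in WT protoplasts, 0.74 and 0.65 in hira roots, and -0.01 and -0.40 in hira protoplasts. It changed by -1.09 in WT (SE 0.21, adjusted p = 0.0219) and by -0.90 in hira (SE 0.21, adjusted p = 0.0377), and the lowest WT root array and the highest hira protoplast array lay close together.

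The lower values of _250433_at_, _250434_at_ and 264262_at were called under every alternative tried, 15 in WT and 16 in hira. Those of 247192_at and 257714_at held under 7 and 8 of 15 alternatives in WT and under 12 and 7 of 16 in hira. The count of H3.1 probe sets called was 3 in WT without WT root replicate 2 or WT protoplast replicate 1, and 3 in hira without any 1 of the 4 hira arrays. The RNA control gaps differed between WT roots and WT protoplasts, and their part in the WT differences was not tested. In hira the GAPDH gap was 0.04 ± 0.12 in roots and -0.09 ± 0.01 in protoplasts, and the actin gap was -0.25 ± 0.13 in roots and 0.26 ± 0.06 in protoplasts (SD, n = 2), without overlap and in the direction of WT. Their part in the hira differences was not tested either. The mean of the 5 H3.1 probe sets changed by -1.91 in hira and by -1.90 in WT. Of 10 root marker loci 2 have a probe set. EXPA7, a root hair expansin gene, changed by 1.86 in WT (adjusted p = 0.165) and -2.85 in hira (adjusted p = 0.0677). AT1G62500, a cortex marker, changed by 0.003 in WT (adjusted p = 0.955) and -0.27 in hira (adjusted p = 0.0064, a call lost without hira protoplast replicate 1). Of 5 green tissue loci RCA alone has a probe set, with 0.12 (adjusted p = 0.946) and -0.66 (adjusted p = 0.766). The part of cell composition in the H3.1 differences was not tested. In such bulk samples a smaller share of cells with H3.1 transcripts and less H3.1 transcript per cell cannot be told apart.

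**Figure D2:**
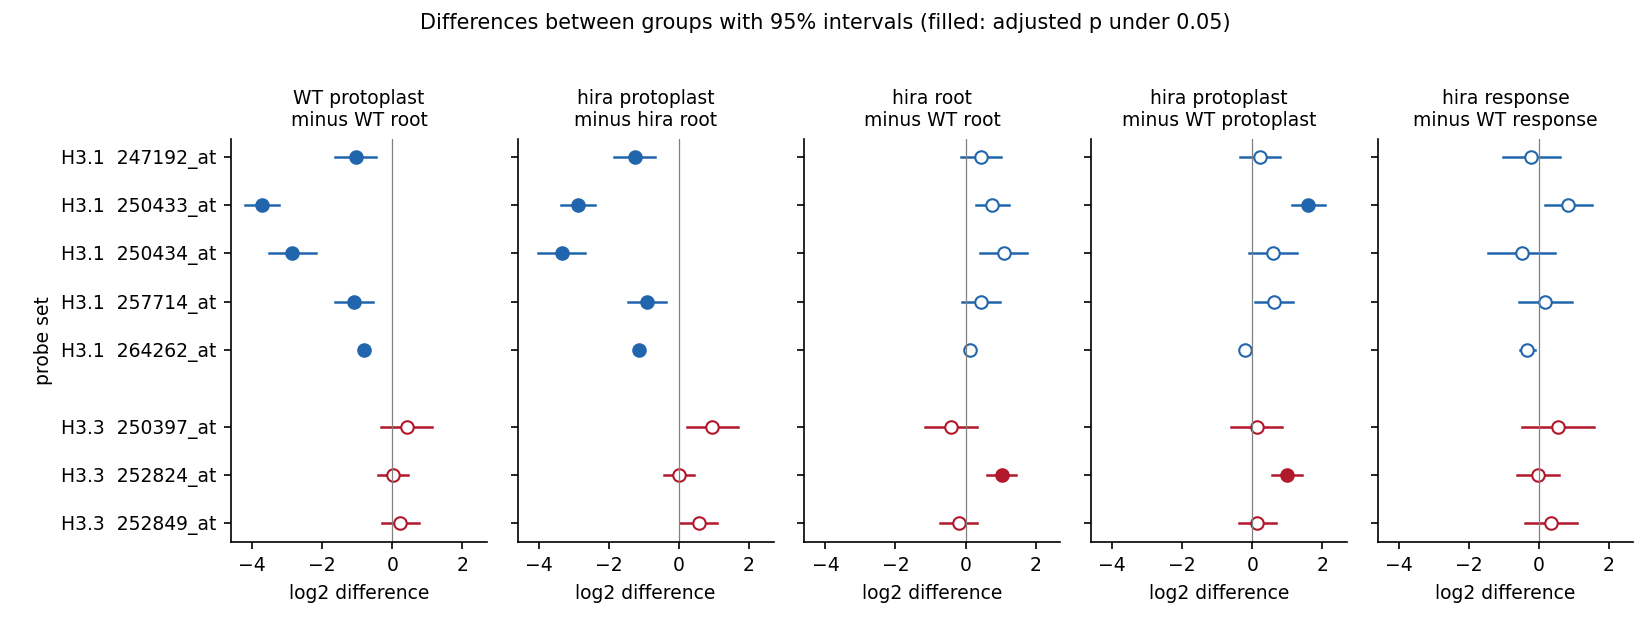
Log2 difference (horizontal axis) of each H3.1 (blue) and H3.3 (red) probe set in the 5 comparisons, with 95% intervals of the limma fit that are not adjusted for the number of tests; filled points have an adjusted p under 0.05. The H3.1 probe sets are filled and below 0 in both protoplast against root panels, and 252824_at is the H3.3 probe set that is filled in both hira against WT panels.

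Among the H3.3 probe sets 0 of 3 were called in protoplasts against roots in either genotype, where 25.6% of all probe sets were called in WT and 24.2% in hira. At an unadjusted p under 0.05 limma gave 0 of 3 in WT and 2 of 3 in hira, where 39.5% and 36.9% of all probe sets passed that looser threshold. Their median log2 change was 0.22 in WT and 0.56 in hira. Among the alternatives in hira, 2 of 3 were called with array weights, and 1 of 3 with a filter that drops flat probe sets.

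Probe set 250397_at read -0.51 and -0.01 in WT roots, 0.01 and 0.28 in WT protoplasts, -0.35 and -0.99 in hira roots, and 0.24 and 0.32 in hira protoplasts. Its protoplast minus root difference was 0.41 in WT (95% interval -0.32 to 1.14, adjusted p = 0.327) and 0.95 in hira (0.22 to 1.68, adjusted p = 0.0726). Probe set 252849_at read -0.36 and 0.08 in WT roots, -0.08 and 0.25 in WT protoplasts, -0.47 and -0.20 in hira roots, and 0.20 and 0.25 in hira protoplasts. Its WT arrays overlapped, with a difference of 0.22 (95% interval -0.30 to 0.75, adjusted p = 0.434). The difference was 0.56 in hira (0.04 to 1.09, adjusted p = 0.116).

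Probe set 252824_at read -0.84 and -0.36 in WT roots, -0.57 in both WT protoplast arrays, 0.47 and 0.38 in hira roots, and 0.49 and 0.36 in hira protoplasts. The 4 hira arrays lay above the 4 WT arrays, and roots and protoplasts did not separate, although the annotation gives it the genes of the other two. Within roots, hira arrays lay above WT arrays for 23.5% of all probe sets, and within protoplasts for 24.3%. Its protoplast minus root difference was 0.03 in WT (95% interval -0.40 to 0.45, adjusted p = 0.906) and 0.0002 in hira (-0.43 to 0.43, adjusted p = 1). The WT protoplast arrays differed by only 0.0002, and WT root replicate 1 read lower than both.

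Between genotypes few differences of the H3.1 probe sets passed the test. In roots 0 of 5 were called higher in hira by limma, where 4.91% of all probe sets were, and 2 of 5 had an unadjusted p under 0.05, as had 26% of all probe sets. For 5 of 5 both hira root arrays lay above both WT root arrays, as for 23.5% of all probe sets. The differences were 0.77 for _250433_at_ (SE 0.18, adjusted p = 0.0708), 1.09 for _250434_at_ (SE 0.26, adjusted p = 0.0711), and between 0.12 and 0.44 for the other 3, of which the lowest, 264262_at, was -0.03 after quantile normalization. With the filter on flat probe sets _250434_at_ was called (adjusted p = 0.0473). The median was 0.44, beside -0.004 over all probe sets. The GAPDH gap was -2.22 ± 0.04 in WT roots and 0.04 ± 0.12 in hira roots (SD, n = 2). Of the root markers AT1G62500 was higher in hira roots by 0.16 (adjusted p = 0.0453), a call that held under 2 of 14 alternatives and was lost without any 1 array, and EXPA7 differed by 2.55 (adjusted p = 0.134). The part of RNA quality and of cell composition in these differences was not tested. WT root arrays also serve as controls of the WT protoplast comparison, so these values and those above share arrays.

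In protoplasts 1 of 5 H3.1 probe sets was called higher in hira, where 5.05% of all probe sets were. This was _250433_at_, higher by 1.61 (SE 0.18, adjusted p = 0.0217), a call that held under 10 of 16 alternatives. Those that lost it included the fits without WT protoplast replicate 2 or either hira protoplast array, with the protoplast arrays alone, and after quantile normalization. At an unadjusted p under 0.05 there were 3 of 5, beside 30.8% of all probe sets. Hira arrays lay above WT arrays for 3 of 5 H3.1 probe sets, as for 24.3% of all probe sets. For 264262_at both hira arrays were the lower ones, at -0.21 (SE 0.06, adjusted p = 0.097). After quantile normalization that difference was -0.62 and was called (adjusted p = 0.0088). RNA controls also split the protoplast arrays by genotype. GAPDH gaps read 0.48 and 0.75 for WT, against -0.09 and -0.10 for hira. Actin gaps read 1.75 and 1.295 for WT, against 0.22 and 0.30 for hira. The part of RNA quality in the protoplast differences between genotypes was not tested.

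For 4 of the 5 H3.1 probe sets the order of group means from high to low was hira root, WT root, hira protoplast, WT protoplast. For 264262_at the protoplast groups changed places. The neighbours hira root and WT root did not pass the test for any of the 5, and the protoplast groups did for _250433_at_ alone.

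Of the H3.3 probe sets 1 of 3, 252824_at, was higher in hira in roots, by 1.03 (SE 0.16, adjusted p = 0.0316), where 9.19% of all probe sets were called in either direction. It was also higher in hira protoplasts, by 0.998 (SE 0.16, adjusted p = 0.0404), where 8.29% were called. The root call held under 5 of 15 alternatives and the protoplast call under 9 of 16. Both calls were lost without any 1 of the protoplast or hira root arrays, and the root call also with the 4 root arrays alone. The difference lay between 0.79 and 1.26 in roots and between 0.94 and 1.105 in protoplasts over the alternatives. The other two probe sets gave -0.41 (95% interval -1.14 to 0.32) for 250397_at and -0.19 (-0.72 to 0.33) for 252849_at in roots. In protoplasts they gave 0.13 (-0.60 to 0.86) and 0.14 (-0.38 to 0.67). The RNA control gaps differed between genotypes in both tissues, and their part in the H3.3 differences was not tested.

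A dependence of the protoplast response on genotype was not shown for any of the 8 probe sets. Limma called 0 of 5 H3.1 and 0 of 3 H3.3 probe sets in the difference of the responses, where 4.87% of all probe sets were called, and 2 of 5 and 0 of 3 had an unadjusted p under 0.05, beside 27.8% of all probe sets. The 2 were _250433_at_, whose response was less negative in hira by 0.84 (95% interval 0.17 to 1.51, adjusted p = 0.126), and 264262_at, whose response was more negative in hira, at -0.33 (-0.55 to -0.12, adjusted p = 0.0903). After quantile normalization 264262_at was called, at -0.59 (adjusted p = 0.02). For the H3.3 probe sets the differences ran from -0.03 for 252824_at to 0.54 for 250397_at.

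The contrast between both forms was then read within each array as the mean of the 5 H3.1 probe sets minus the mean of the 3 H3.3 probe sets, from which a shift common to an array cancels. It is a description of 8 chosen probe sets and has no test. It was 1.12 and 0.82 in WT roots, -1.12 and -1.18 in WT protoplasts, 1.44 and 1.36 in hira roots, and -1.03 and -0.98 in hira protoplasts. All 4 root arrays lay above all 4 protoplast arrays, and within roots the hira arrays lay above the WT arrays. From roots to protoplasts it changed by -2.12 in WT and by -2.41 in hira. Most of this came from the H3.1 side, since the H3.3 mean changed by 0.22 in WT and 0.50 in hira. Between genotypes it differed by 0.43 in roots, or 0.28 without WT root replicate 2 and 0.09 after quantile normalization. In protoplasts it differed by 0.14, or -0.39 after quantile normalization.

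**Figure D3:**
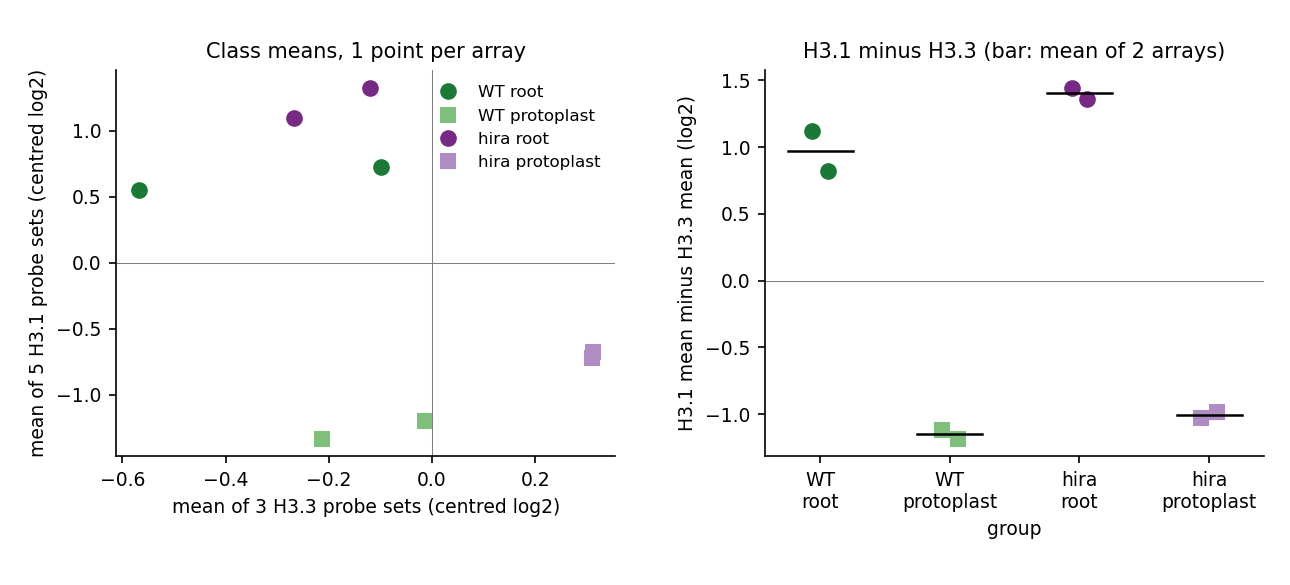
Left, mean of the 5 H3.1 probe sets (vertical axis, centred log2) against the mean of the 3 H3.3 probe sets (horizontal axis, centred log2), with 1 point per array. Right, H3.1 mean minus H3.3 mean by group with a bar at the mean of 2 arrays, between 0.82 and 1.44 on root arrays and between -1.18 and -0.98 on protoplast arrays.

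Of the H3 genes outside both groups, the list held 6 loci, of which 5 have 6 probe sets. In WT 3 of the 6 rose in protoplasts and 0 fell, against 11.7% of all probe sets called higher. In hira 3 rose, against 12%, and 1 fell. The 3 are the probe sets of AT1G75600 and AT1G13370 and 262979_s_at, which the annotation gives to both of these genes. AT1G75600 read -2.30 and -1.82 in WT roots, 1.82 and 2.37 in WT protoplasts, -2.22 and -2.12 in hira roots, and 3.19 and 2.81 in hira protoplasts. It rose by 4.15 in WT (SE 0.27, adjusted p = 0.00179) and by 5.17 in hira (SE 0.27, adjusted p = 0.00121), the opposite direction to the H3.1 probe sets on the same arrays. Probe set 262979_s_at rose by 3.67 and 4.76 (adjusted p = 0.00101 and 0.00056). It was higher in hira than in WT protoplasts by 1.18 (adjusted p = 0.0327), a call lost without any 1 of the protoplast or hira root arrays. The RNA control gaps differed between those protoplasts, and their part in this difference was not tested. AT1G13370 rose by 1.81 (adjusted p = 0.0354) and 3.84 (adjusted p = 0.00564), and the WT call held under 5 of 15 alternatives, being lost without either WT root array, WT protoplast replicate 2 or any hira array.

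HTR12, which encodes the centromeric H3 variant, changed by -1.29 in hira (SE 0.21, adjusted p = 0.0161) and by -0.19 in WT (adjusted p = 0.518). The hira call was lost without either hira protoplast array. It read 1.50 and 0.89 in hira roots, above the 0.20 and 0.01 of WT roots, a difference of 1.09 (adjusted p = 0.0487) that held under 3 of 15 alternatives and was lost without any 1 array other than the hira root arrays. The difference of its responses did not pass (-1.101, adjusted p = 0.105). The RNA control gaps differed between WT and hira roots, and their part in the HTR12 difference between roots was not tested. MGH3, a male gamete H3 gene, and AT5G12910 passed in no comparison.

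Other histone probe sets gave no common direction. All 5 probe sets of H4, the partner of H3 in the tetramer, are given to the same 8 genes, and limma called 0 of 5 in each of the 5 comparisons, where between 4.87% and 25.6% of all probe sets were called. At an unadjusted p under 0.05 there were 3 in WT and 2 in hira for protoplasts against roots, 3 and 1 for hira against WT in roots and protoplasts, and 1 for the difference of responses, beside 39.5%, 36.9%, 26%, 30.8% and 27.8% of all probe sets in the same order. The H4 changes ran from -0.85 to 0.59 in WT and from -0.74 to 0.54 in hira protoplasts against roots. Of 9 H2B probe sets 1 fell in WT, where 13.9% of all probe sets were called lower. In hira 2 rose and 2 fell, where 12% and 12.2% were called higher and lower. The median H2B change was 0.30 in WT and 0.11 in hira. HTB2 fell in both, with changes of -2.85 in WT (SE 0.33, adjusted p = 0.00643) and -1.89 in hira (SE 0.33, adjusted p = 0.0193), the hira call being lost without any 1 hira array. In hira AT2G28720 changed by -2.08 (adjusted p = 0.0244), AT3G09480 by 4.02 (adjusted p = 0.00912) and AT2G37470 by 1.49 (adjusted p = 0.0445). These 3 calls were lost without either hira protoplast array, AT2G28720 also without hira root replicate 2, and AT2G37470 also without either hira root or WT protoplast array.

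Of 3 probe sets for linker histone H1, 0 were called in protoplasts against roots by limma, where 25.6% of all probe sets were called in WT and 24.2% in hira. At an unadjusted p under 0.05 there were 2 in WT and 0 in hira, beside 39.5% and 36.9%. HIS1-3, a drought-induced H1 gene, was higher in hira than in WT roots by 4.65 (SE 0.66, adjusted p = 0.0259), a call that held under 8 of 15 alternatives and was lost without WT root replicate 2, hira root replicate 2 or either hira protoplast array. The GAPDH gap was -2.22 in WT roots and 0.04 in hira roots, and its part in the HIS1-3 difference was not tested. The listed canonical and variant H2A genes have no probe set in the annotation used, nor have ATXR5, ATXR6 and TSK, whose proteins prefer H3.1.

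**Figure D4:**
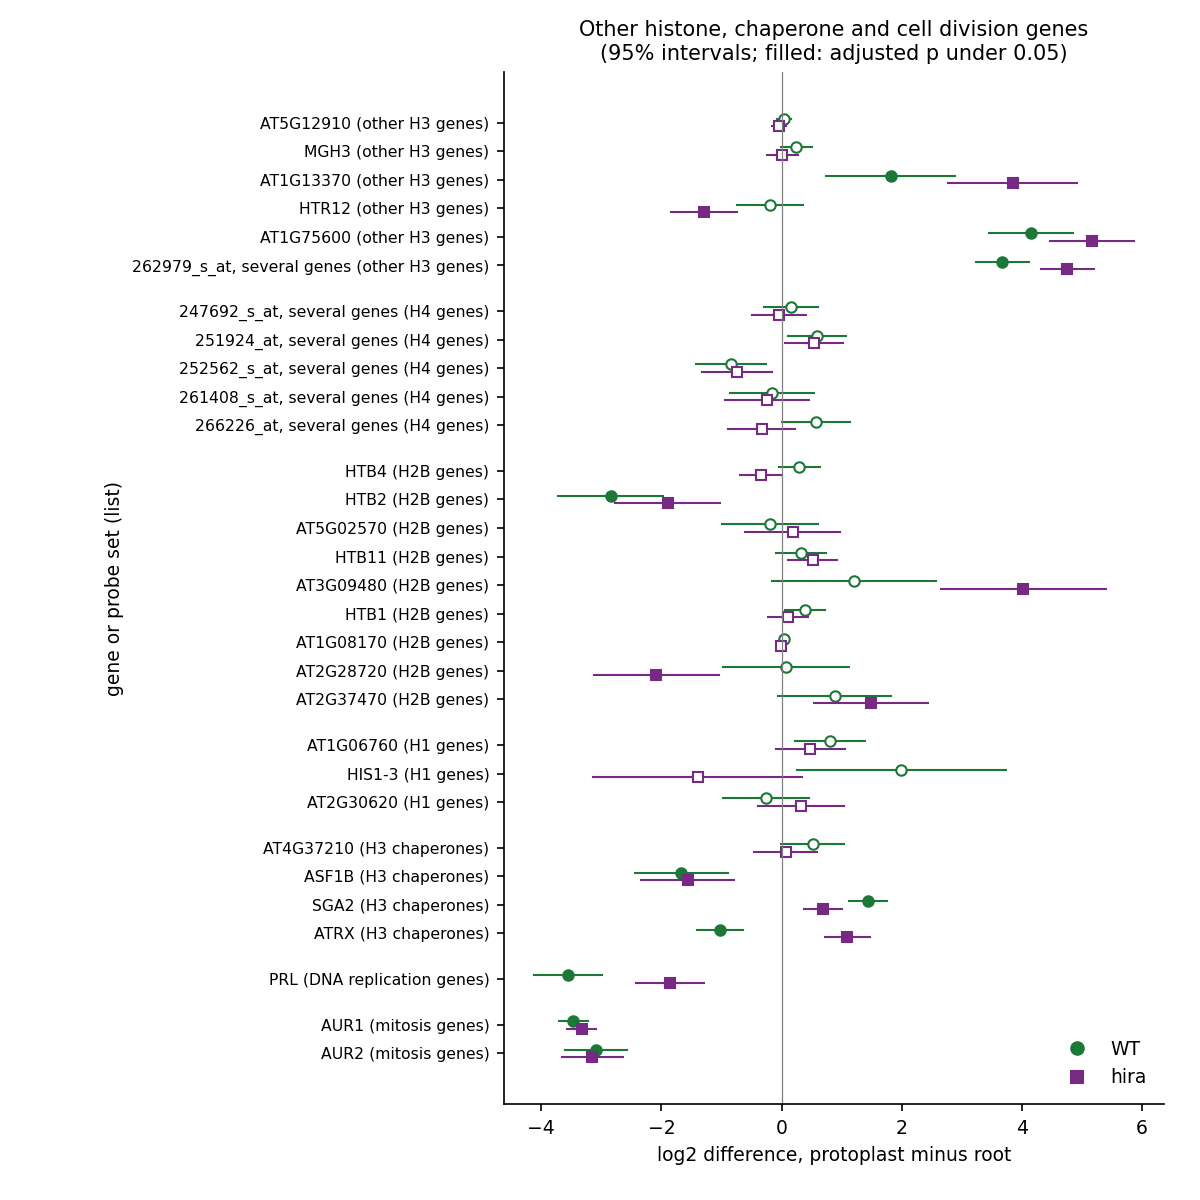
Log2 difference of protoplasts minus roots (horizontal axis) in WT (circles) and hira (squares), with 95% intervals not adjusted for the number of tests, for other H3, H4, H2B and H1 genes, H3 chaperones and cell division genes; filled symbols have an adjusted p under 0.05. The probe sets of AT1G75600 and AT1G13370 lie above 0, from 1.81 to 5.17, and those of ASF1B, HTB2, PRL, AUR1 and AUR2 below it.

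Of 12 listed H3 chaperone and partner genes 4 have a probe set. ASF1B, an H3-H4 chaperone gene linked to dividing cells, read 0.29 and 0.13 in WT roots, -1.77 and -1.15 in WT protoplasts, 1.75 and 1.104 in hira roots, and -0.13 and -0.15 in hira protoplasts. Its group order was that of most H3.1 probe sets. It changed by -1.67 in WT and -1.56 in hira (adjusted p = 0.0187 and 0.0237), calls that held under 9 of 15 and 11 of 16 alternatives. The WT call was lost without either WT root array, WT protoplast replicate 1 or either hira protoplast array, and the hira call without hira root replicate 1 or either hira protoplast array. Its paralog SGA2 (ASF1A) rose, by 1.44 in WT and 0.68 in hira (adjusted p = 0.00311 and 0.0199), the hira call being lost without hira root replicate 1 or either hira protoplast array. ATRX, a remodeller tied to H3.3, changed by -1.03 in WT (adjusted p = 0.00997) and by 1.09 in hira (adjusted p = 0.00936, a call lost without hira protoplast replicate 2), and it was lower in hira than in WT roots, at -1.88 (adjusted p = 0.00863). Its WT call and its call between roots were lost with the arrays of the 2 groups alone (limma, adjusted p = 0.0685 and 0.0885). Both use the WT root arrays, which stood apart in RNA controls, and the part of RNA quality was not tested. AT4G37210, the NASP-type chaperone gene, passed in no comparison.

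The 3 measured cell division genes fell in the same protoplasts as H3.1. PRL (MCM7), a subunit of the replication helicase, read 0.56 and 0.29 in WT roots, -3.13 in both WT protoplast arrays, 1.51 and 1.14 in hira roots, and -0.29 and -0.77 in hira protoplasts. It changed by -3.56 in WT and by -1.85 in hira (adjusted p = 0.00164 and 0.00704). In protoplasts it was higher in hira by 2.601 (adjusted p = 0.0132), a call lost without hira protoplast replicate 1 and with the protoplast arrays alone. The mitotic kinase genes AUR1 and AUR2 changed by -3.47 and -3.09 in WT and by -3.33 and -3.15 in hira. AUR1 was also higher in hira than in WT roots, by 0.58 (adjusted p = 0.0305), and in hira protoplasts, by 0.72 (adjusted p = 0.0268). These calls held under 3 of 15 and 7 of 16 alternatives, with values of 0.12 and 0.15 after quantile normalization. The RNA control gaps differed between genotypes in both tissues. Their part in the PRL and AUR1 differences between genotypes was not tested. Only 1 of 14 replication and 2 of 10 mitosis loci have a probe set.

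Among 1551 single-gene probe sets with a gene symbol, those nearest to the H3.1 mean profile over the 8 arrays, by root mean square difference, were IQD31 (0.22), EMB2786 (0.22), TUB7 (0.24) and TBL35 (0.25). All 4 fell in protoplasts, with changes from -2.26 to -1.55 in WT and from -2.09 to -1.87 in hira. The IQD31 call in WT held under 11 of 15 alternatives, and the TUB7 call in hira under 13 of 16. The TBL35 calls held under 11 of 15 in WT and 12 of 16 in hira, the latter lost without any 1 hira array. The other calls of these genes held under every alternative. Nearest to the H3.3 mean profile were OTP87 (0.13), DAYSLEEPER (0.13), SEH1H (0.13) and PUB49 (0.14). Of these OTP87 and DAYSLEEPER rose in hira protoplasts, by 0.53 and 0.44 (adjusted p = 0.0285 and 0.0206), and 0 of 4 passed in WT. The OTP87 call held under 8 of 16 alternatives, being lost without hira root replicate 2, either protoplast array of WT or either of hira. The DAYSLEEPER call held under 11 of 16 and was lost without any 1 hira array. Nearness was set by the same 8 arrays as these changes, which are therefore a description.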

How the data were processed

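The deposited values are log2 values from GCRMA, as named in the submitters' processing notes without a version. The log base and the centring are not given in the sources used here: log2 is GCRMA's usual output, and each probe set's median over the 8 arrays is 0 within rounding. After leaving out 64 control probe sets, 22746 were tested, with no low-value filter because centred values hold no level. The number of arrays limits the precision. Group means of all 8 arrays were fitted with limma 3.58.1 (lmFit, eBayes) in R 4.3.3, with 4 residual and 0.742 prior degrees of freedom. The 5 contrasts were two-sided, with p-values adjusted by Benjamini-Hochberg over all 22746 probe sets. The fit was checked on simulated data with independent noise, which does not test array or RNA quality effects.

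Members, 10 gene lists, 2 marker lists and tests were chosen with earlier results of these data known. A probe set belonged to a list if all its annotated genes did. Named were all members, all measured chaperones, up to 3 called genes per direction, list and comparison, and the 4 nearest profiles per group by root mean square difference. Alternatives were quantile normalization, array median centring, trend and robust moderation, array weights, the 2 groups alone, an SD filter of 0.2, a replicate block and leaving out each array. Leaving out both WT root arrays was added after seeing the data.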

Additional observations from a re-analysis of the deposited data

Results flagged for a closer look

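The responses of ATRX differed between the genotypes by limma's test of the difference, with a hira minus WT response of 2.12 (SE 0.20, adjusted p = 0.0203). Its arrays read 0.76 and 0.96 in WT roots and -0.92 and -1.11 in hira roots, and the call was lost without either hira protoplast array. The WT root arrays stood apart in RNA controls, whose part in this difference was not tested. AT1G62500, 1 of the 2 root marker genes with a probe set, differed by -0.27 (adjusted p = 0.0453), within centred values that ran from -0.12 to 0.16 over all arrays, and the call held under 4 of 13 alternatives, being lost without any 1 array other than those of WT roots.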

How the results depend on the processing

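The 5 of 5 H3.1 probe sets called lower in WT protoplasts became 3 with array weights, 3 with the arrays of the 2 groups alone and 3 with the replicate block, and 3 to 5 when each array was left out. In hira they were 3 to 5 when each array was left out. The H3.3 count in hira protoplasts against roots, 0, became 2 with array weights, 1 with the SD filter and 1 with the replicate block. The H3.1 count in hira against WT roots, 0, became 1 with the SD filter, and in the difference of responses, 0, it became 1 after quantile normalization. The H3.3 count in hira against WT roots, 1, became 0 after quantile normalization, with array weights, with the 2 groups alone and with the replicate block, and was 0 to 1 when each array was left out. The H3.1 count in hira against WT protoplasts, 1, became 0 after quantile normalization, with the 2 groups alone and with the replicate block, and the H3.3 count there, 1, became 0 with the replicate block. Both were 0 to 1 when each array was left out. The H3.1 minus H3.3 change in WT, -2.12, was -1.67 with medians and -1.78 with the pair of widest range averaged first. In hira, -2.41, it was -2.01, -2.11 and, after quantile normalization, -2.58. The gap between genotypes was 0.0945 in roots after quantile normalization, and in protoplasts 0.036 with medians, -0.39 after quantile normalization and 0.011 with the pair averaged first. Fewer arrays or a shorter list of probe sets enter the reduced fits, and the causes of the other shifts were not tested. Over the values of single probe sets, alternatives kept the side of the threshold 3412 times, lost a call 200 times and gained one 86 times. A turn of sign was counted only where the main fit or the alternative gave a call. That occurred once, for the green tissue gene RCA in hira protoplasts against roots, which was not called in the main fit. It ran from -2.47 to 1.154 when each array was left out, the last without hira root replicate 2. Signs also turned where neither fit gave a call. An example is 252824_at in WT protoplasts against roots, from -0.21 to 0.26 over the alternatives. Leaving out both WT root arrays changed none of the 4 counts that do not use them. Replicate numbers were shared only as numbers: same-numbered arrays correlated between -0.096 and 0.048 in their deviations from group means. With 2 arrays a group, intervals are wide, and centred values hide signal over background.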
